A study of Mus musculus with 12 samples.

Results

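To ask how the RNAs of the core splicing machinery stood in primitive leukaemic cells, the genes of 4 classes of splicing protein were taken from bulk RNA-seq of murine LSK cells. The classes were the snRNP proteins, the SF3a and SF3b subunits, the SR proteins and the hnRNPs, chosen as protein-coding genes with symbols starting Snrp, Sf3a, Sf3b, Srsf or Hnrnp. They held 52 of the 56748 genes in the deposited counts, with 12 snRNP, 9 SF3a and SF3b, 11 SR and 20 hnRNP genes. LSK cells (Lin-Sca+Kit+) are the bone marrow fraction that contains haematopoietic stem cells and multipotent progenitors. All 12 libraries came from SCLtTA/BCR-ABL double transgenic (DTG) donor marrow (CD45.2), in which the tetracycline transactivator is driven by regulatory sequence of the Scl gene and switches on human BCR-ABL1 when tetracycline (TET) is absent. The donor cells were a frozen pool from many DTG mice of both sexes, and they were transplanted into irradiated B6.SJL (CD45.1) recipients aged 8 to 12 weeks, which all drank TET for 2 weeks after the transplant. In the 6 CTRL (BCR::ABL1-) libraries TET was then continued, and in the 6 CML 2wk (BCR::ABL1+) libraries it was withdrawn for 2 weeks before donor LSK cells were sorted. The labels give CTRL as male and CML 2wk as female, whereas the study's methods name recipients and donors of both sexes. As labelled, sex and BCR::ABL1 expression cannot be told apart in any comparison here. The human transgene is not among the counted genes, so its expression was not checked.

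Introns are removed by the spliceosome, which is built from small nuclear ribonucleoprotein particles (snRNPs), each a small RNA wrapped in a ring of Sm proteins with further particle-specific proteins. U1 marks the start of the intron and U2, held by SF3a and SF3b, takes the branch point near its end. SR proteins bind exons and mostly favour their inclusion, while hnRNPs coat the nascent RNA and often oppose it, and both families also act in RNA export, stability and translation. In haematopoiesis these genes are known for mutations of SF3B1, SRSF2, U2AF1 and ZRSR2 in myeloid neoplasms.

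Total counts per library were 22804754 to 41832868 in CTRL and 16150817 to 25070105 in CML 2wk, and mitochondrial genes took 0.816% to 1.288% and 2.258% to 2.973% of them. Libraries of the CML 2wk group varied more from each other (biological coefficient of variation 32.6% against 10.8%). CML 2wk replicates 2 and 4 stood apart in genes of stroma and endothelium, with a summed level of 869 and 404 CPM (counts scaled to library size) against 172 to 240 in the other 10 libraries, and replicate 2 had the highest sum of mast cell and basophil genes, 2422 CPM. Of the 8 mast cell and basophil markers 5 were higher and 1 (Gata2, by a log2 fold change of -1.10) was lower in CML 2wk, with a summed level of 294 to 396 CPM in CTRL and 461 to 2422 CPM in CML 2wk. Of the 10 neutrophil markers 4 were higher and 5 lower, with sums of 2322 to 4664 and 3115 to 8541 CPM. The 5 lower ones overlapped between groups, and CTRL replicate 4 stood apart in them, with Ngp at 528 CPM against 16.6 to 97.4 CPM in the other CTRL libraries. Without this library 16 splicing genes were called higher and 24 lower. Of 8 erythroid markers 6 were lower and 1 (Tfrc) higher. The globin gene Hba-a1 had a median of 10.6 CPM in CTRL and 0.184 CPM in CML 2wk, and Hbb-bs 47.9 and 2.25 CPM with overlapping groups. Erythroid sums were 210 to 295 CPM in CTRL and 287 to 659 CPM in CML 2wk, where Tfrc was highest (mean 405 CPM). Of 8 monocyte and macrophage markers 3 were higher and 0 lower. Of 7 B cell markers 0 were higher and 2 lower, and of 5 tested T and NK cell markers 2 and 1. All 5 tested megakaryocyte markers were lower, with sums of 276 to 322 and 90.6 to 252 CPM. Of 8 mitosis genes 3 were higher and 4 lower. Ccnb1, Cdk1 and Bub1 rose by 0.39, 0.39 and 0.42 on the log2 scale, while Mki67 fell by 1.38 and Top2a by 0.73. Their sum was 3179 to 3884 CPM in CTRL and 1771 to 2272 CPM in CML 2wk. Mki67 and Top2a had the highest levels in it (means of 1587 and 1228 CPM in CTRL). Of 8 S phase genes 4 were higher and 2 lower, with overlapping sums of 1120 to 1359 CPM in CTRL and 1184 to 1551 CPM in CML 2wk. Among the genes of the sort itself, Kit had a median of 745 CPM in CTRL and 418 CPM in CML 2wk and Ly6a (Sca-1) 35.7 and 39.9 CPM. Whether these marker changes go with a shift in cell composition, and what part such a shift has in the results below, was not tested. In bulk RNA fewer cells of a type cannot be told apart from less RNA per cell.

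Between the groups 50 of the 52 genes could be tested, and 18 were higher and 24 lower in CML 2wk (edgeR quasi-likelihood test, Benjamini-Hochberg adjusted p under 0.05 over 18438 genes). The comparison moved most of the transcriptome, so these counts are read against all genes, of which 59.5% passed the same threshold, 30.6% as higher and 29% as lower. Of the tested splicing genes 84% passed, and their median log2 fold change was -0.12 beside 0.07 for all genes and -0.11 for protein-coding genes. Among genes with a mean log2 CPM of at least 1, 9483 of 13740 passed, and 19 splicing genes were higher and 23 lower. What part of the larger share in splicing genes goes with expression level was not tested. The CPM of the 2 groups did not overlap for 34 of the 50 genes, 13 higher and 21 lower, against 37.6% of all genes. The direction went with the class. In the snRNP class 9 genes were higher and 1 was lower, and in the hnRNP class 3 were higher and 14 lower. SF3a and SF3b had 2 higher and 6 lower, and the SR proteins 4 higher and 3 lower. The same 2 directions were seen in the summed levels, which in snRNP genes ran from 706 to 881 CPM in CTRL and from 1046 to 1540 CPM in CML 2wk, and in hnRNP genes from 9484 to 10973 CPM and from 8090 to 9001 CPM. For neither class did the groups overlap, whereas the sums of SF3a and SF3b and of the SR proteins overlapped.

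**Figure D1:**
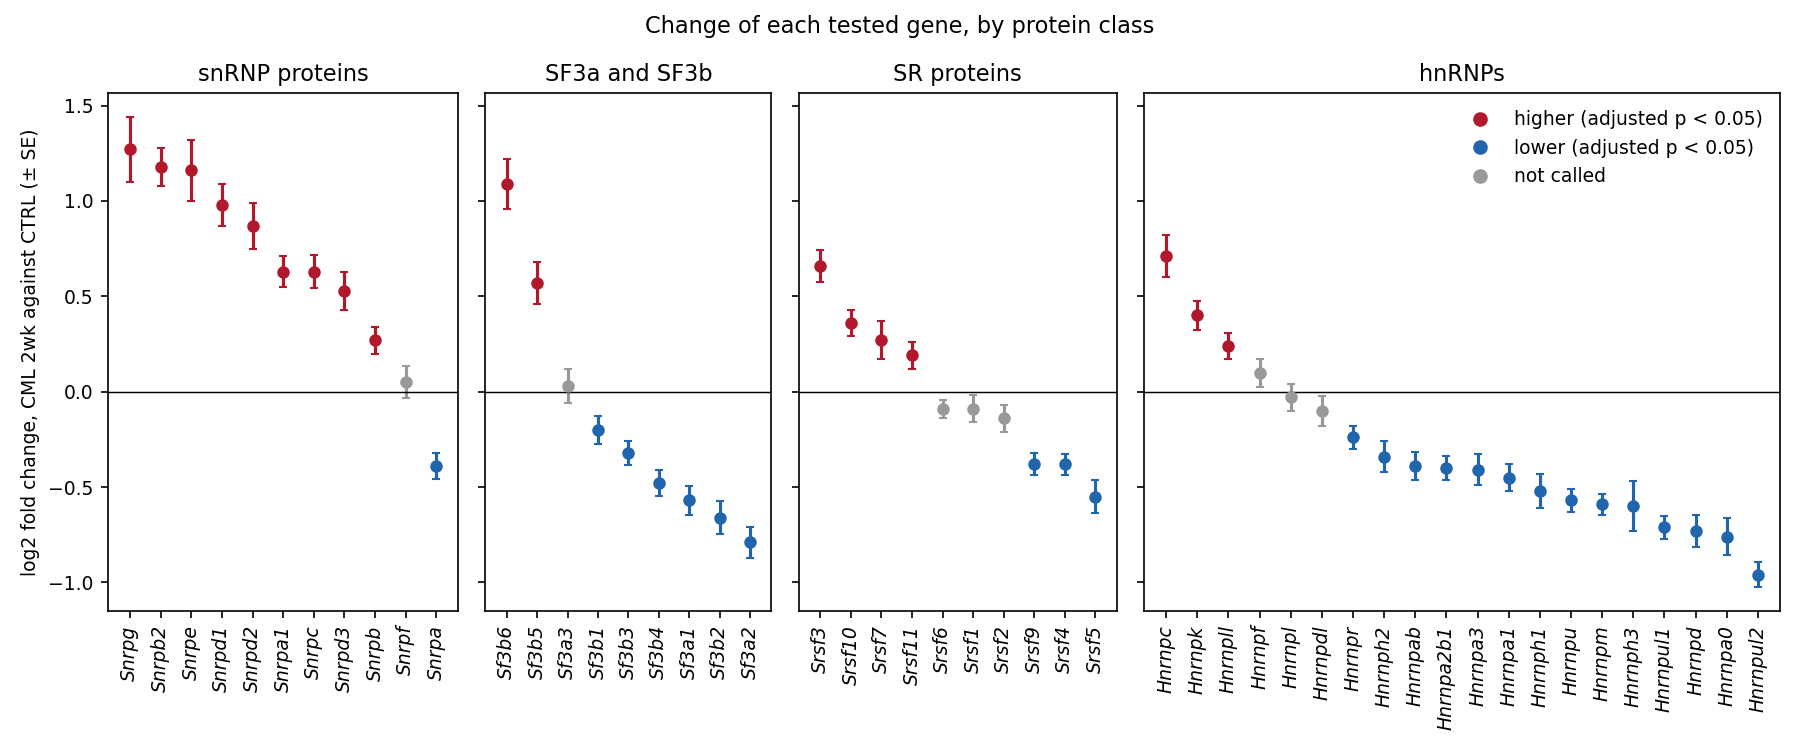
Log2 fold change of CML 2wk against CTRL with its standard error (vertical axis) for the 50 tested genes, ordered within each class (6 libraries a group). Red points are higher and blue points lower at an adjusted p under 0.05 and grey points were not called, with 9 of 11 snRNP genes above 0 in red and 14 of 20 hnRNP genes below 0 in blue.

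The Sm proteins, which form the ring around the U1, U2, U4 and U5 RNAs, were encoded by several of the genes that rose most, beside Snrpb2 and Sf3b6 described further on. Snrpg (SmG) was at 39.7 CPM in the lowest, 48.8 in the median and 53.7 in the highest CTRL library, and at 73.1, 112 and 161 CPM in CML 2wk. Each CML 2wk library was above each CTRL library, with replicates 3 and 6 highest and replicates 2 and 5 lowest. The log2 fold change was 1.27 ± 0.17 (SE, n = 6 and 6, edgeR adjusted p = 2.03e-05). Snrpe (SmE) went from 70.2, 82.8 and 92.1 CPM (lowest, median and highest) to 113, 173 and 254 CPM, again with no overlap and with replicates 3 and 6 on top, a log2 fold change of 1.16 ± 0.16 (edgeR adjusted p = 2.17e-05). Snrpd1, Snrpd2 and Snrpd3, for the SmD proteins, rose by log2 fold changes of 0.98, 0.87 and 0.53, and Snrpb, for SmB, by 0.27, its groups overlapping at 172 to 213 and 209 to 266 CPM. The remaining gene of the ring, Snrpf (SmF), was not called at 31.4, 36.9 and 39.5 CPM in CTRL and 31.2, 37.1 and 43 CPM in CML 2wk (log2 fold change 0.05 ± 0.083, edgeR adjusted p = 0.608). Thus 6 of the 7 ring genes were called higher in the main fit, and whether Snrpf differed from them was not tested. In the fits described below that offset transcript length, alone or together with GC content, Snrpf was called lower. With length alone offset Snrpb was not called.

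The counts of some Sm genes depend on how reads shared with processed copies were assigned. Near-identical copies (at least 95% identity over 80% of the coding sequence) held 19.9% of the combined Snrpg counts in CTRL and 18.6% in CML 2wk, and 7.39% and 6.64% for Snrpe, so the share going to copies was close in both groups. For each other Sm gene it was 2% or less. Exon bases were shared with another annotated gene in 23 of the 52 genes, most often on the opposite strand, which counts without a known strand setting may mix. Of the ring genes called higher, Snrpd3 (25833 counts over all libraries) overlaps Gucd1 (9605 counts). Among the genes that fell, Hnrnph3 (13623 counts) overlaps Rufy2 (11978 counts) and Sf3a2 (18538 counts) overlaps Plekhj1 (8976 counts). Snrpa, which also fell, overlaps BC024978 (4491 counts).

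Among the particle-specific proteins Snrpb2 and Snrpa1 of U2 rose, and of the U1 genes Snrpc rose while Snrpa and Snrnp70 fell. Snrpb2 (the B″ protein), which binds a stem loop of U2 RNA, was at 52.9, 56 and 62.8 CPM in CTRL and at 101, 123 and 160 CPM in CML 2wk. The groups were far from overlapping, and the log2 fold change of 1.18 ± 0.10 was the best supported of the class (edgeR adjusted p = 2.86e-07). Its partner in the U2 particle, Snrpa1 (the A′ protein), rose by 0.63 ± 0.079. Of the U1 proteins, Snrpc (the C protein), which touches the start of the intron, rose by 0.63 ± 0.088. Snrpa (the A protein of U1) was at 64.3, 76.5 and 81.8 CPM in CTRL and 50.6, 58.8 and 60.3 CPM in CML 2wk. In the main fit it was the sole gene of the Snrp class called lower, with no overlap and a log2 fold change of -0.39 ± 0.067 (edgeR adjusted p = 1.62e-04). Snrnp70 (U1-70K), which is outside the class by its symbol and is counted with the recruitment factors, went from 332 ± 14.5 to 205 ± 19.2 CPM, with no overlap and a log2 fold change of -0.69 (edgeR adjusted p = 7.83e-07). Snrpn, the SmN gene of neurons, held 8 counts in all 12 libraries and was not tested.

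**Figure D2:**
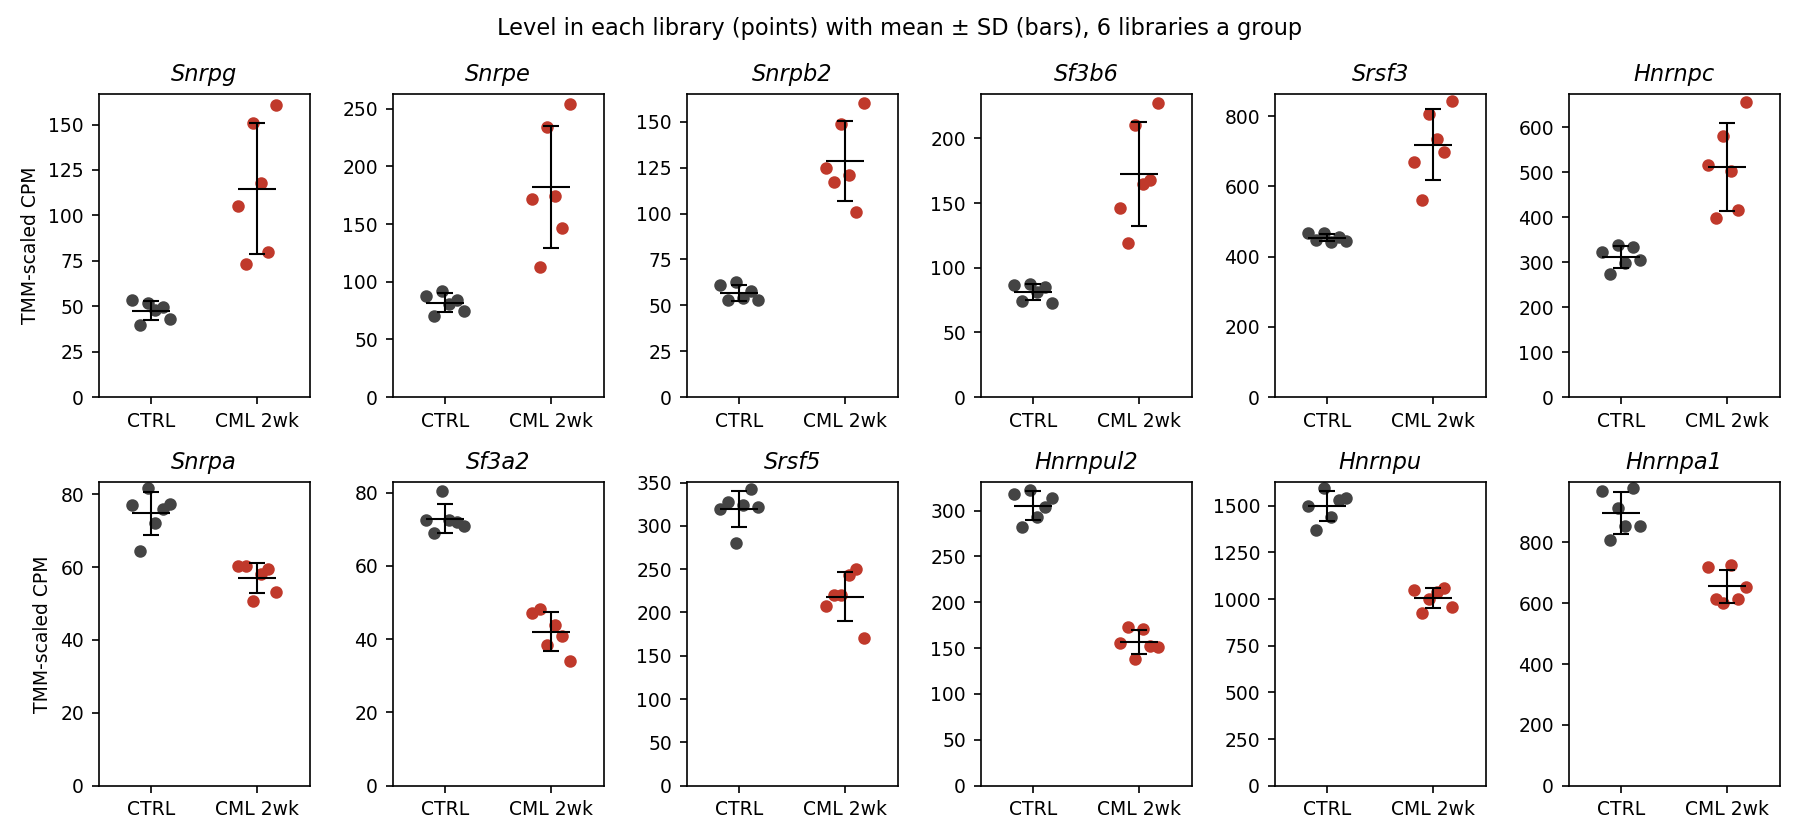
CPM scaled by TMM factors (vertical axis, from 0) in each of the 6 CTRL and 6 CML 2wk libraries (points) with mean and SD (black bars), for 6 genes called higher (upper row) and 6 called lower (lower row). In none of the 12 genes do the groups overlap, and the higher genes spread more among CML 2wk libraries, as in Snrpg from 73.1 to 161 CPM.

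SF3a and SF3b, the large complexes that fix U2 to the branch point, split by subunit. Sf3b6 (p14), the small subunit that contacts the branch point adenosine, was at 73, 83 and 87.5 CPM in CTRL and at 119, 166 and 227 CPM in CML 2wk. Replicates 3 and 6 were again the highest and replicate 2 the lowest, all above CTRL, for a log2 fold change of 1.09 ± 0.13 (edgeR adjusted p = 5.27e-06). Sf3b5, the other very small subunit, rose by 0.57 ± 0.11. The larger subunits fell or were not called. Sf3a2, the zinc finger subunit of SF3a, was at 68.9, 72.3 and 80.6 CPM in CTRL and 34, 42.4 and 48.2 CPM in CML 2wk, without overlap and with a log2 fold change of -0.79 ± 0.081 (edgeR adjusted p = 1.23e-06). Sf3b2 fell by 0.66, Sf3a1 by 0.57, Sf3b4 by 0.48 and Sf3b3 by 0.32 on the log2 scale, each with no overlap between groups, while Sf3a3 was not called (log2 fold change 0.03).

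Sf3b1, the scaffold subunit that is mutated in myelodysplasia, was the most abundant of the 9 in CPM. It was at 639, 672 and 701 CPM in CTRL and at 514, 564 and 678 CPM in CML 2wk, where replicates 1 and 2 lay within the CTRL range. The log2 fold change of -0.20 ± 0.073 passed the threshold narrowly (edgeR adjusted p = 0.0265), was no longer called without CTRL replicate 3 or any 1 of CML 2wk replicates 3, 4 and 5, and was 0.14 once transcript length was offset. Srsf2, U2af1 and Zrsr2, the other genes named above for their mutations, were not called in the main fit. Without CML 2wk replicate 5, its highest library at 376 CPM, Srsf2 was called lower. It was also called lower with transcript length offset, alone or together with GC content. Srsf2 stood at 340 ± 14 CPM in CTRL and 309 ± 33.5 CPM in CML 2wk (SD, n = 6 each), U2af1 at 111 ± 5.6 and 108 ± 8.82 CPM, and Zrsr2 at 39.5 ± 2.07 and 34.7 ± 6.25 CPM, with log2 fold changes of -0.14, -0.05 and -0.19. Of further splicing genes known for mutations in these diseases, Prpf8 fell by 0.90, Ddx41 by 0.32 and Luc7l2 by 0.18 on the log2 scale. Reads of Srsf2 share exon bases with Mfsd11 and Mettl23 on the opposite strand, and the strand setting of the counting is not given in the sources used here.

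SR proteins carry RNA recognition motifs and a tail rich in arginine and serine, and tune their own RNAs through exons that lead to decay, which counts per gene do not separate. Srsf3, the smallest SR protein and an adaptor for mRNA export, was at 442, 452 and 468 CPM in CTRL and 562, 717 and 844 CPM in CML 2wk. All CML 2wk libraries lay above the narrow range of CTRL, with replicate 2 lowest and replicates 3 and 6 highest. The log2 fold change was 0.66 ± 0.085 (edgeR adjusted p = 1.06e-05). Srsf10, the splicing repressor activated on heat shock and in mitosis, rose by 0.36 with groups that touched (highest CTRL 218, lowest CML 2wk 216 CPM). Srsf7 and Srsf11 were called at 0.27 and 0.19, with CML 2wk libraries on both sides of the CTRL range in Srsf7 (275 to 460 against 307 to 338 CPM). The count of SR genes called higher was 2 rather than 4 without any 1 of CTRL replicates 1, 4, 5 or 6 or CML 2wk replicate 3, and Srsf7 turned to -0.15 when length and GC content were offset.

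Called lower were 3 SR genes. Srsf5 was at 280, 323 and 342 CPM in CTRL and 170, 220 and 250 CPM in CML 2wk, with replicate 6 lowest, and its log2 fold change was -0.55 ± 0.086 (edgeR adjusted p = 7.12e-05). Srsf4 and Srsf9 each fell by 0.38 with no overlap. Srsf1, the founding SR protein and a known oncoprotein, had the highest CPM of the class in CTRL, though not in CML 2wk, where Srsf3 was higher, and was not called, at 600, 679 and 732 CPM in CTRL and 595, 608 and 745 CPM in CML 2wk. Srsf6 was not called either, at 424 to 443 and 388 to 431 CPM, with a log2 fold change of -0.09. With transcript length offset, alone or together with GC content, Srsf1 was called lower. Srsf6 was called with DESeq2 and with length and GC content offset. Srsf12 held 95 counts in all libraries and was not tested.

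The hnRNPs were the most abundant class and mostly fell. Hnrnpul2, a relative of hnRNP U, was at 282, 309 and 322 CPM in CTRL and 138, 154 and 173 CPM in CML 2wk. The groups were widely separated, and the log2 fold change of -0.96 ± 0.065 was the largest decrease among the 50 genes (edgeR adjusted p = 4.89e-08). Its relatives Hnrnpul1 and Hnrnpu, the latter a nuclear scaffold protein that also binds chromatin RNA, fell by 0.71 and 0.57, Hnrnpu from 1497 ± 80.3 to 1006 ± 54 CPM. Hnrnpa0, which binds AU-rich 3′ ends of inflammatory mRNAs, was at 412, 454 and 533 CPM in CTRL and at 230, 267 and 339 CPM in CML 2wk, a log2 fold change of -0.76 ± 0.096. Hnrnpd (AUF1), another AU-rich element binder that speeds decay, fell by 0.73 ± 0.084 from 314, 381 and 424 CPM to 196, 227 and 254 CPM.

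The core A and B group proteins moved by similar amounts. Hnrnpa2b1, which in CTRL was second in CPM to Hnrnpu among the 52 genes, was at 1282, 1340 and 1496 CPM in CTRL and 966, 1010 and 1151 CPM in CML 2wk, a log2 fold change of -0.40 ± 0.064 without overlap. In CML 2wk the highest mean was that of Hnrnpk (1089 ± 96.3 CPM). Hnrnpa1, which antagonises SR proteins at splice sites and is known for its role downstream of BCR::ABL1, was at 809, 885 and 980 CPM against 602, 635 and 726 CPM (log2 fold change -0.45 ± 0.073, edgeR adjusted p = 8.97e-05). Hnrnpa3 fell by 0.41 and Hnrnpab by 0.39. Per kilobase of transcript the 3 highest CTRL means of all members were Hnrnpa2b1 (784), Srsf1 (556) and Hnrnpa1 (468 CPM per kb), and in CML 2wk these were 596, 523 and 342.

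Against this direction, Hnrnpc, whose protein binds uridine tracts and keeps intronic repeats from being spliced in, was at 274, 314 and 339 CPM in CTRL and at 398, 510 and 656 CPM in CML 2wk. All CML 2wk libraries were above all CTRL libraries, with replicates 3 and 6 highest as in the Sm genes, and the log2 fold change was 0.71 ± 0.11 (edgeR adjusted p = 6.84e-05). Hnrnpk, a poly(C) binder linked to MYC translation in BCR::ABL1-expressing cells, was at 733, 825 and 887 CPM in CTRL and at 940, 1084 and 1201 CPM in CML 2wk. There was no overlap, and it rose by 0.40 ± 0.074 (edgeR adjusted p = 3.04e-04). Hnrnpll, a regulator of CD45 splicing in lymphocytes, rose by 0.24 with overlapping groups. Hnrnpf, Hnrnpl and Hnrnpdl were not called, with log2 fold changes from -0.10 to 0.10. Pcbp2 (hnRNP E2), which is known to block translation of the myeloid factor C/EBPα in advanced CML, was at 371 ± 21.9 CPM in CTRL and 319 ± 25.8 CPM in CML 2wk, a log2 fold change of -0.22 (edgeR adjusted p = 0.0112).

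Because paired genes are read in the same library, their ratio does not depend on scaling between libraries. It can still follow the trends with transcript length and GC content given below, in which paired genes differ. Of 17 pairs of related genes 15 had both genes above the count filter, and the log2 ratio differed between groups in 12 (two-sided exact permutation over 6 and 6 libraries, Benjamini-Hochberg adjusted over the pairs). The share among pairs of other genes was not computed. As 59.5% of all genes were called, the count of 12 is not read as particular to related genes. With 6 and 6 libraries the smallest p possible is 0.00216. The largest shift was between the U1 and U2 relatives Snrpa and Snrpb2, whose log2 ratio was 0.28 to 0.55 in CTRL and -1.59 to -0.75 in CML 2wk, a difference of -1.55 (exact permutation p = 0.00216, adjusted p = 0.00325). Thus Snrpa had more counts than Snrpb2 in every CTRL library and fewer in every CML 2wk library. Hnrnpc gained on its relative Raly by 0.78, and Srsf3 gained on Srsf7 by 0.40. Hnrnpd lost to Hnrnpdl by 0.63 and Hnrnph1 lost to Hnrnpf by 0.64, each with no overlap and the same p. Hnrnpa1 had a log2 ratio to Hnrnpa2b1 of -0.60 ± 0.099 in CTRL and -0.65 ± 0.081 in CML 2wk (exact permutation p = 0.284), and the ratios of Hnrnpa1 to Hnrnpa3 and of Hnrnph1 to Hnrnph2 did not pass either.

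**Figure D3:**
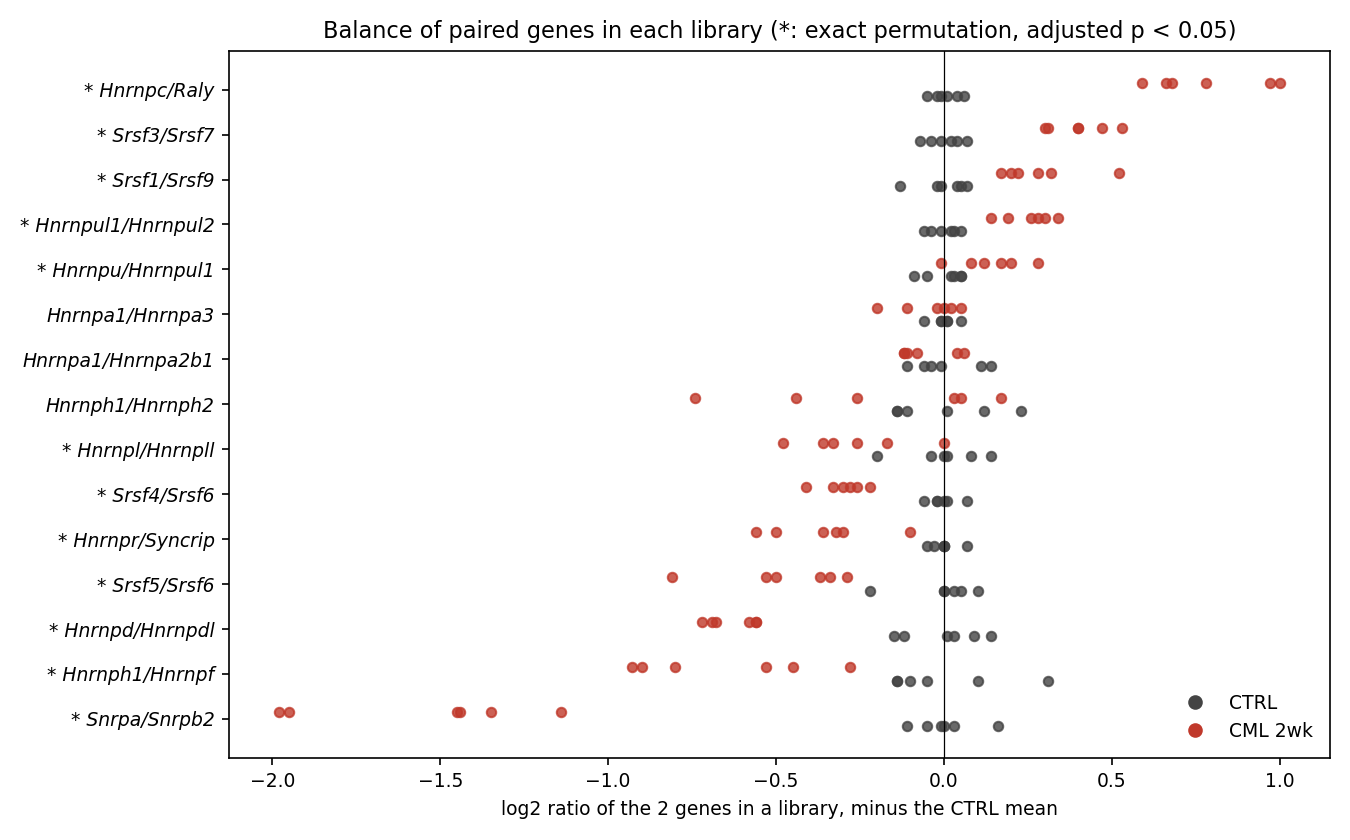
Log2 ratio of the counts of 2 related genes in each library, minus the mean of the CTRL libraries (horizontal axis), for 15 pairs (dark points CTRL, red points CML 2wk, 6 libraries each). Snrpa/Snrpb2 is furthest left and Hnrnpc/Raly furthest right, and for 10 pairs the points of the groups do not overlap.

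The other genes of the pathway, taken by role, were divided as well. Their calls are read against the 59.5% of all genes called, which the counts of snRNP assembly (64.7%), SR kinases (66.7%) and hnRNP-like proteins (64%) were close to and that of the minor spliceosome (44.4%) was below. All 8 LSm genes, whose proteins form the Sm-like rings on U6 RNA and on decaying mRNA, were called higher, from 0.21 (Lsm2) to 1.19 (Lsm5), with a median of 0.54. Their coding lengths were 240 to 414 bases. Protein-coding genes of such lengths also had a raised median, 0.40, as given below. Lsm5 went from 15.7 ± 1.37 CPM to 35.8 ± 9.36 CPM and Lsm7 from 16.1 ± 1.2 to 36.5 ± 10.4 CPM. Of 17 genes for snRNP assembly 10 were called higher and 1 lower. They included Smn1, which with the Gemin proteins loads Sm proteins onto the RNA (29 ± 2.27 to 52.5 ± 7.98 CPM, log2 fold change 0.85), Clns1a, the chaperone that receives Sm proteins (0.84), Strap (0.88) and Gemin6 (0.97). The exception was Phax, the export adaptor of the snRNA itself, which fell by 0.32.

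Factors of the catalytic steps and the recruitment factors were mostly lower. None of 11 helicases and factors of the catalytic steps was called higher and 8 were lower (1 was higher with total counts alone and 2 with upper-quartile factors), among them Slu7, which acts at the second step (-0.73), and Dhx16, the helicase that starts the first (-0.68). Among 13 U1 and U2 recruitment factors 8 were lower (5 with upper-quartile factors) and 1 higher, with Sf1, the first reader of the branch point, going from 370 ± 11.1 to 210 ± 16.4 CPM (-0.82). Of 12 SR-related proteins 7 were lower and 3 higher, with the speckle scaffold Srrm2 at 1267 ± 66 and 660 ± 79.6 CPM (-0.94), and of 9 SR protein kinases 5 were lower and 1 higher. Other hnRNP-like proteins had 15 of 25 lower and 1 higher, including Ptbp1, the polypyrimidine tract repressor (-0.62). The tri-snRNP proteins (4 higher and 8 lower of 16), the Prp19 complex (7 and 6 of 17), the exon junction complex (4 and 6 of 10) and the minor spliceosome (3 and 1 of 9) were mixed. The largest increases within these 4 lists were those of Ppih, the cyclophilin of the tri-snRNP (1.14), Bud31 (1.13), Magoh, a core subunit of the exon junction complex (1.08), and Snrnp25 of the minor spliceosome (0.98). In the same order of lists, the largest decreases were those of Sart1 (-0.91), Syf2 (-0.50), Casc3 (-0.96) and Pdcd7 (-0.62). The summed level of the tri-snRNP genes was 2121 to 2404 CPM in CTRL and 1498 to 1795 CPM in CML 2wk, without overlap.

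**Figure D4:**
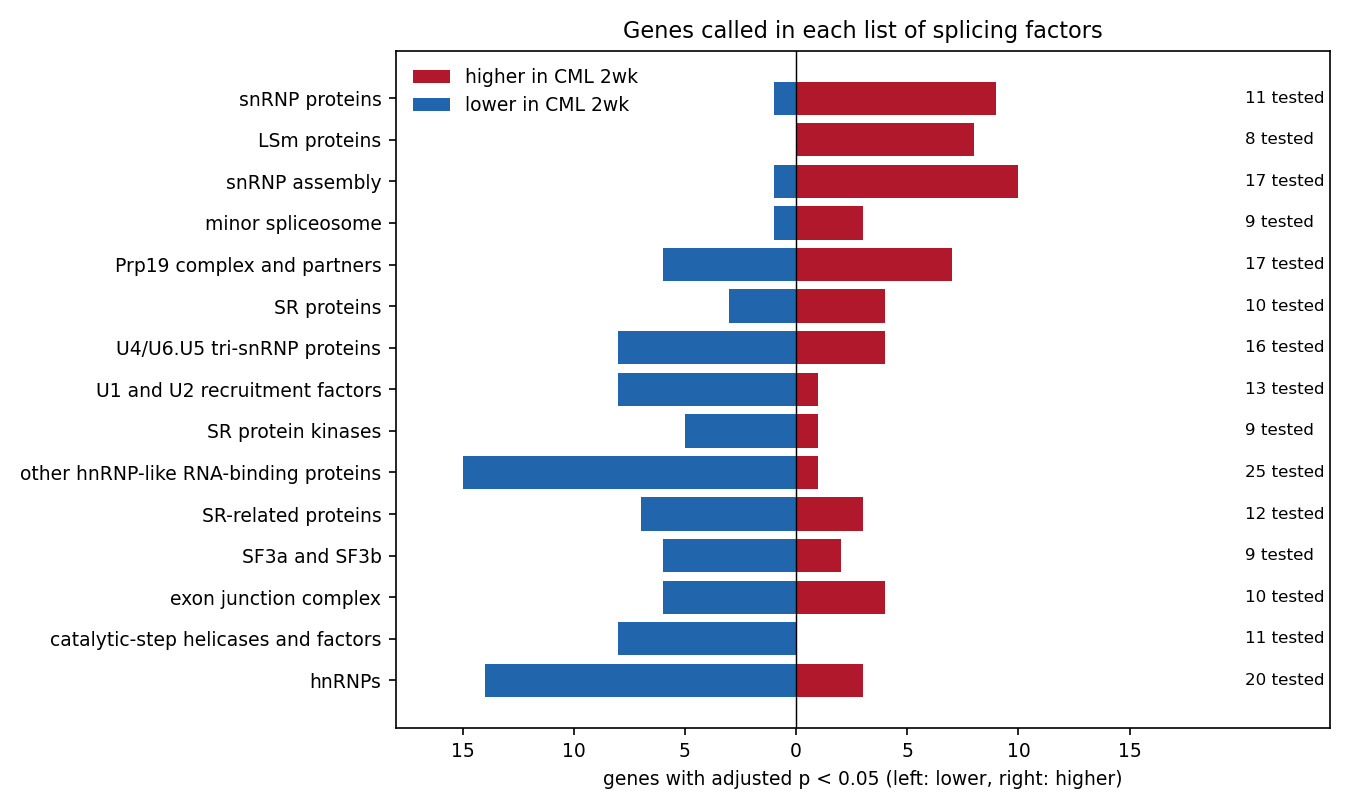
Number of genes with an adjusted p under 0.05 (horizontal axis, lower in CML 2wk to the left and higher to the right) in the 4 classes and 11 other lists of splicing genes, with the number tested at the right. Lists are ordered by median log2 fold change, from the snRNP proteins with 9 higher and 1 lower to the hnRNPs with 3 higher and 14 lower.

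The change also went with transcript length. Across 13051 protein-coding genes the log2 fold change fell with coding length (Spearman's rho -0.31) and transcript length (-0.30) and, less, with GC content (-0.23), where all points share the same 12 libraries and genes are not independent replicates. Of 10 bins of nearly equal size by coding length, the shortest had a median of 0.40 and the longest -0.43. Over the 50 tested splicing genes rho was -0.64 with coding length and -0.41 with transcript length. Within the classes rho with coding length was nearer 0, at -0.45 in snRNP genes (n = 11), -0.37 in SF3a and SF3b (n = 9), -0.26 in SR genes (n = 10) and -0.10 in hnRNPs (n = 20). The classes differ in size, with coding lengths of 228 to 861 bases in snRNP genes (median 378) and 915 to 2577 bases in hnRNPs (median 1304). Each gene was given the median of all protein-coding genes in its own bin of coding length, and the median of these values was taken over the class. The snRNP median of 0.63 compares with 0.40 found in this way. Of the snRNP genes 9 of 11 lay above the median of their own bin, the exceptions being Snrpa and Snrpf. The hnRNP median of -0.40 compares with -0.09, and 15 of 20 lay below. For SF3a and SF3b the values were -0.32 and -0.16, and for SR proteins -0.09 and 0.08. Hnrnpc and Hnrnpk, at 0.71 and 0.40, were among the 5 hnRNPs above the median of their bin. Among the other lists, all 8 LSm genes lie in the shortest bin. The 11 genes of the catalytic steps have coding lengths of 1026 to 3732 bases, in bins with medians of 0.03 to -0.43. What part of the difference between classes or lists goes with length was not tested.

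**Figure D5:**
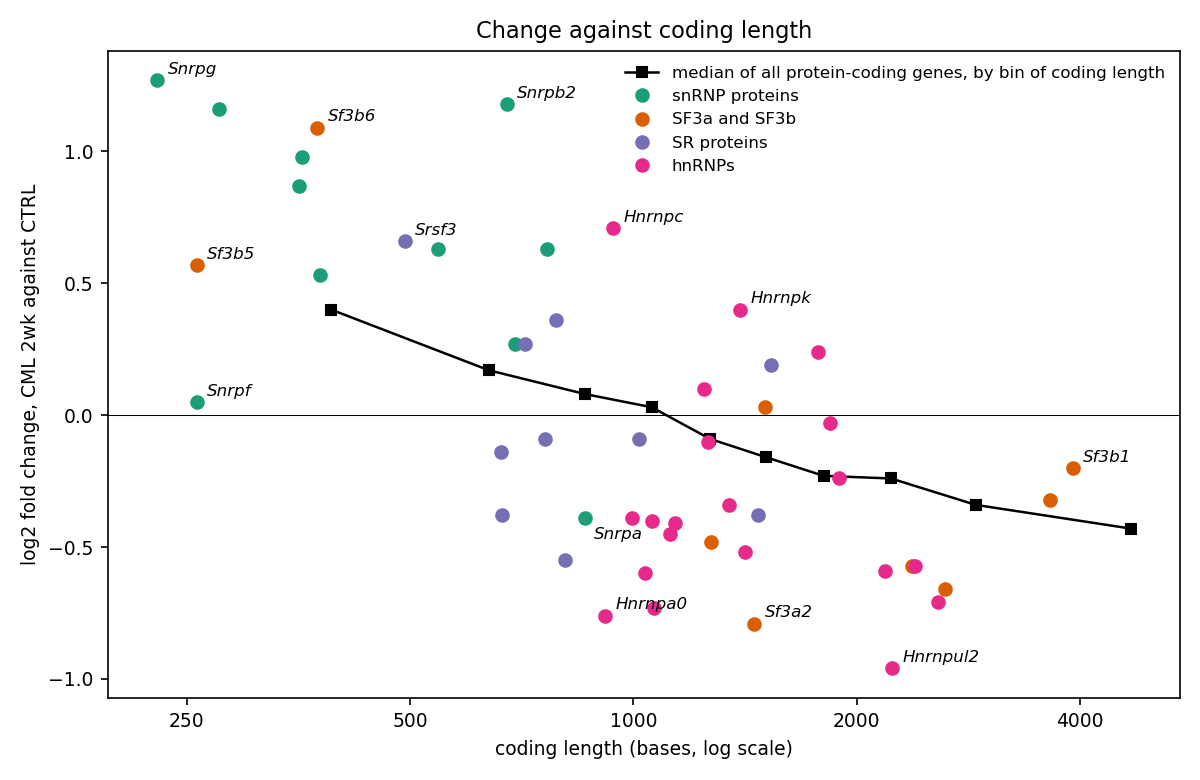
Log2 fold change of CML 2wk against CTRL (vertical axis) against coding length in bases (horizontal axis, log scale) for the 50 tested genes, coloured by class. Black squares join the medians of all protein-coding genes by bin of coding length, which fall from 0.40 to -0.43, and most snRNP genes lie above the line and most hnRNPs below it.

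When the trend with transcript length was offset within each library, 17 genes were called higher and 23 lower, and with GC content offset as well 15 and 24. Both fits, and one without CML 2wk replicates 2 and 4 that called 18 higher and 24 lower, were added after the data were seen. With length and GC content offset, snRNP genes had 9 higher and 2 lower (Snrpa and Snrpf) with a median of 0.38, and hnRNPs 2 higher and 13 lower with a median of -0.47. Such offsets also remove any change that short or GC-rich genes truly share. Under the length offset alone 3 called genes changed direction, Sf3b1 (0.14), Hnrnpr (0.28) and Snrpb (-0.03). Of the 42 called genes 33 were called in 1 direction under each of 23 other settings, among them Snrpg, Snrpb2, Snrpe, Sf3b6, Srsf3, Hnrnpc, Hnrnpk, Snrpa, Sf3a2, Srsf5, Hnrnpa1 and Hnrnpul2.

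The promoters of the 4 classes were read for letters of known motifs. RefSeq (GRCm38.p6) promoter windows of 250 bases before to 50 bases after a start were at hand for 46 of the 52 genes, 63 windows in all, and the motifs were chosen after the expression values were seen. The core recognised by ETS factors, CCGGAAG on either strand, was in 33.3% of these windows against 8.86% of the 32851 windows of all genes. It was in 8 of 15 windows of genes called higher and in 9 of 32 windows of genes called lower, so it was found with both directions. Windows of a gene can hold the same site, and by gene it was in 7 of 14 called higher and 7 of 22 called lower. The other letters searched were GGGCGG (GC box, 68.3% against 35.7%), CACGTG (E-box, 11.1% against 7.15%), CCAAT (44.4% against 37.4%) and TATAAA (11.1% against 13.6%), each on both strands. In the windows of genes called higher and lower, GGGCGG was in 9 of 15 and 25 of 32, and CACGTG in 0 of 15 and 6 of 32. CCAAT was in 6 of 15 and 15 of 32, and TATAAA in 1 of 15 and 4 of 32. Whether these shares differ by direction was not tested. A match is a description of these letters and not a bound site. As examples, 4 windows of genes that rose and 4 of genes that fell are shown, with the ETS core in capitals on whichever strand it lies, each read 5′ to 3′ along the gene and ending at or before the start.
Snrpg, log2 fold change 1.27, chr6:86371365-86371431, plus strand: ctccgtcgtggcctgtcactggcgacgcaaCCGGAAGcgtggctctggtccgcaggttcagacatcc
Snrpb2, log2 fold change 1.18, chr2:143063011-143063068, plus strand: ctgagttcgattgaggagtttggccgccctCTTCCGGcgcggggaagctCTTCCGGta
Sf3b6, log2 fold change 1.09, chr12:4817493-4817574, plus strand: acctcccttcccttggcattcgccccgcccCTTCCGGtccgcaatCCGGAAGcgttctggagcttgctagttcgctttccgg
Snrpc, log2 fold change 0.63, chr17:27840018-27840084, plus strand: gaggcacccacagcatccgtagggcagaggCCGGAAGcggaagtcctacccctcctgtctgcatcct
Sf3a2, log2 fold change -0.79, chr10:80798629-80798695, plus strand: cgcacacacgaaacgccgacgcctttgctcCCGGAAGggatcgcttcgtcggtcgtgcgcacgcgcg
Hnrnpd, log2 fold change -0.73, chr5:99979080-99979146, minus strand: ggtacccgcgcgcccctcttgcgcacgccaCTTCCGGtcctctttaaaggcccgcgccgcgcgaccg
Sf3b2, log2 fold change -0.66, chr19:5295456-5295498, minus strand: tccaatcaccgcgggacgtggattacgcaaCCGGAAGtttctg
Srsf5, log2 fold change -0.55, chr12:80945379-80945498, plus strand: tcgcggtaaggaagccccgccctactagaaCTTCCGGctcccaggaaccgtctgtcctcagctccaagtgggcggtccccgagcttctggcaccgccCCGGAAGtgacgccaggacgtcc
Snrpb2 and Sf3b6, which rose, and Srsf5, which fell, each hold the core more than once in the printed stretch.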

How the data were processed

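Gene counts of 12 bulk RNA-seq libraries of sorted donor LSK cells (6 CTRL, 6 CML 2wk) were analysed. The authors deposited unnormalised counts per Ensembl gene, 1 file a library. The submitters' processing notes name FastQC 0.11.9, fastp 0.23.2, STAR 2.7.10a, featureCounts 2.0.1 and mm39 (GRCm39), whereas the study's methods for bulk RNA-seq name Trim Galore!, HISAT2, featureCount and hg38. The strand setting and the handling of reads with several matches are not given in the sources used here. Groups and replicate numbers came from the sample titles. The study's methods give n = 6 for each cohort of recipients, which matches the libraries, and the labels do not say which recipient a library came from. Donor marrow was pooled, so the spread between libraries is not one between donors.

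Symbols were matched by Ensembl ID to GENCODE vM21 (52073 of 56748), and processed pseudogenes with matching names were left out. The members, lists and tests were chosen with earlier results of these data known. Counts were fitted with edgeR 4.0.16 in R 4.3.3 (quasi-likelihood, TMM, filterByExpr). Printed CPM are scaled by TMM factors. Named were the 3 largest called changes each way in a class, its 2 most abundant genes and the genes not called or not tested. Also named were 4 genes known from myeloid neoplasms or BCR::ABL1 biology (Sf3b1, Srsf2, Hnrnpk, Hnrnpa1) and the genes of the pairs, except Syncrip, the partner of Hnrnpr. Of the genes of largest change that were planned for the other lists, only a part is named. Further genes were named after their values were seen. Ratios of pairs used 0.5 added to each count. Lengths and GC content are those of the transcript with the longest coding sequence, and copies were found with BLAST+ 2.17.0. Alternatives included DESeq2 1.42.0, other scalings and filters, and leaving out libraries. The offsets for transcript length and GC content and the fit without CML 2wk replicates 2 and 4 were added after seeing the data. Motifs were searched on both strands. Counts and depth limit precision by counting error only in part, since PCR copies are not independent molecules.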

Additional observations from a re-analysis of the deposited data

Results flagged for a closer look

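Of 196 groups of 6 values examined, 12 had a highest or lowest library whose gap to the next was beyond Dixon's 95% critical value for the range of the group, where chance gives about 1 in 20, or 9.8. In CTRL, replicate 3 was high in Sf3a2 (80.6 CPM, next 72.5) and low in Srsf5 (280 CPM, next 320) and in the log2 ratio of Srsf5 to Srsf6 (-0.67, next -0.45), replicate 2 was low in Snrpa1 (44 CPM, next 51), and replicate 6 was high in Srrm2 (1398 CPM, next 1264). In CML 2wk, replicate 6 was high in Sf3b5 (81.7 CPM, next 62.4) and Snrpb (266 CPM, next 230), replicate 3 was low in Hnrnpul1 (248 CPM, next 274) and Srsf9 (45.5 CPM, next 49.3), replicate 1 was high in Srsf1 (745 CPM, next 633), replicate 5 was high in Srsf2 (376 CPM, next 304), and replicate 2 was low in the summed level of the SR genes (2928 CPM, next 3267).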

How the results depend on the processing

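Of 2180 values recomputed under an alternative, 2077 held, which for a gene or ratio means the same direction and side of the threshold, for a count of genes within 1.5 times the reported one, and for a median a move of less than the spread between replicates, and the cause of the other changes was not tested. Over the fits that leave out 1 library, SR genes called higher ranged from 2 to 4 and the Hnrnpu/Hnrnpul1 ratio difference from 0.11 to 0.17, past the threshold in part of them. Upper-quartile factors gave a median of -0.04 over all members, -0.01 for SR and -0.33 for hnRNP genes, 5 recruitment factors lower, and 2 catalytic factors, 2 SR kinases and 3 hnRNP-like genes higher, against 1, 2 and 0 with total counts alone. Medians were -0.24, -0.16 and -0.47 with no filter (SR genes higher 2) and -0.05, -0.02 and -0.33 with the stricter one. Length offsets gave 2 snRNP and 5 SR genes lower and an SF3a and SF3b median of -0.10, and length and GC offsets gave 2 and 5, 2 SR genes higher, and medians of 0.38 (snRNP), -0.15 (SF3a and SF3b), -0.18 (SR) and -0.47 (hnRNP). An adjusted p under 0.01 left 2 SR genes higher. Direction turned in Hnrnpl (0.04 with upper quartile, 0.04 with the stricter filter, 0.08 with length and GC), U2af1 (0.03 and 0.02 with the first 2 of these), Raly (0.21) and Srsf7 (-0.15) with length and GC, and Hnrnpr (0.28), Sf3b1 (0.14), Snrpb (-0.03) and Srsf6 (0.03) with length alone. Upper-quartile factors moved the median of all genes from 0.07 to 0.14. With the replicate number as a block 16 members were higher and 23 lower, 2 of them SR genes higher, but same-numbered libraries correlated at -0.125 to 0.0679 and the numbers do not pair the libraries. DESeq2 called 18 and 25. CTRL replicate 1 alone correlated best with its own number.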
